A study of Schmidtea mediterranea with 16 samples.

Results

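The genes described here were close to silent in sorted stem cells of unirradiated planarians and were read after irradiation. They were chosen by level. A gene had to average under 0.5 CPM (counts per 1e+06 reads counted in genes) in each unirradiated group, and at least 5 CPM in irradiated control cells. Of the 26833 genes in the deposited matrix, 54 met this rule. They made up 0.537% of the 10055 genes at 5 CPM or more in irradiated control cells. Levels in irradiated cells under atm knockdown took no part in the choice.

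The study sequenced poly(A) RNA of X1 cells of Schmidtea mediterranea, a freshwater planarian. The 4 groups were irradiated atm(RNAi), irradiated unc-22(RNAi), unirradiated atm(RNAi) and unirradiated unc-22(RNAi), with 4 libraries each. RNAi means silencing of a gene by double-stranded RNA, and unc-22, a nematode gene, served as the control target. The dose was 2000 rads, given 1 day before the X1 cells were taken. The labels state neither strain nor age of the animals, nor whether the libraries came from separate animals, so p values measure the spread between these libraries.

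Planarians replace their tissues from a population of dividing stem cells, the neoblasts, which ionising radiation kills. X1 is a gate in flow cytometry that takes cells with a high DNA content, mostly neoblasts in cycle. ATM is a kinase that responds to double-strand breaks in DNA and, in mammals, acts on p53 and on checkpoint kinases. The files do not pair identifiers of the dd_Smed_v6 transcriptome with gene names. Genes are therefore given by identifier with no function, and neither the knockdown of atm nor the neoblast markers of the X1 gate could be checked.

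The libraries held 6.99 to 26.5 M reads counted in genes (M, 1e+06). Irradiated unc-22(RNAi) was the shallowest group, at 6.99 to 15.1 M, against 17.8 to 26.5 M in unirradiated unc-22(RNAi). In CPM, 3 reads equalled 0.138 to 0.217 CPM in irradiated atm(RNAi) libraries, 0.198 to 0.429 CPM in irradiated unc-22(RNAi) libraries and 0.113 to 0.168 CPM in unirradiated ones. That is the limit a count of 0 allows, for counting error only. CPM are not scaled by gene length, so levels were compared between libraries and not between genes.

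Appearance after irradiation was not a start from nothing. None of the 54 genes had 0 reads over the 8 unirradiated libraries. They had 28 to 79 reads there, with a median of 54.5, and all 54 had a read in each unirradiated group. In 11 of them at least 1 unirradiated library reached 1 CPM. Across the whole matrix, 0 of the 10055 genes at 5 CPM or more in irradiated unc-22(RNAi) lacked reads in all unirradiated libraries. The genes named by the rule were thus faint before irradiation, and the phrase "appearing only in irradiated cells" overstates the counts.

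In irradiated unc-22(RNAi) the group means ran from 5.01 to 9.22 CPM, with a median of 5.86 CPM. Medians of the group means were 2.13 CPM in irradiated atm(RNAi), 0.364 CPM in unirradiated atm(RNAi) and 0.332 CPM in unirradiated unc-22(RNAi). The ratio of irradiated to unirradiated means in unc-22(RNAi) ran from 10.6 to 83.3, with a median of 19.1. This ratio follows from the rule and is given as a description. In the edgeR fit of all 16 libraries, 53 of the 54 genes were called higher in this comparison, beside 23.8% of all 17843 tested genes, and 39 had no overlap between the groups, beside 21.1%. Nothing is read from these counts. The exception was dd_Smed_v6_18180_0_1, singled out after its values were seen. Its mean and SD (n = 4) were 5.43 ± 6.10 CPM in irradiated unc-22(RNAi), with no read in replicate 1, against 0.391 ± 0.496 CPM in unirradiated unc-22(RNAi). In bulk RNA, more cells of a type and more RNA per cell cannot be told apart.

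**Figure D1:**
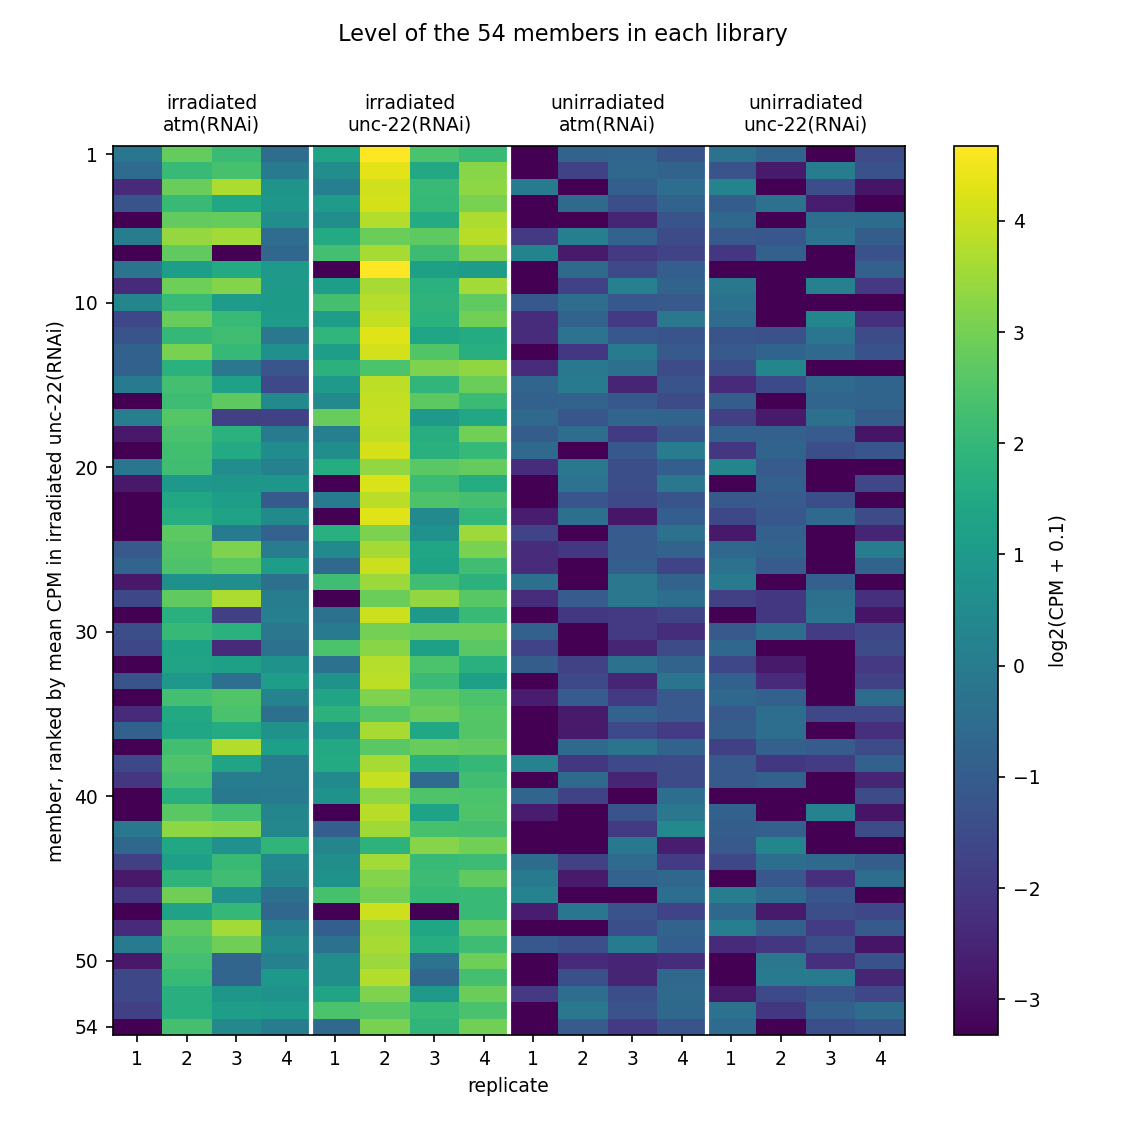
Level of each of the 54 genes in each library, as log2(CPM + 0.1), with genes in rows ranked by their mean in irradiated unc-22(RNAi) and libraries in columns by group and replicate. Irradiated unc-22(RNAi) replicate 2 is the brightest column, and irradiated atm(RNAi) replicate 1 is as dark as the unirradiated columns.

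The genes rose unevenly over the irradiated control libraries. Irradiated unc-22(RNAi) replicate 2 was the highest of its group for 47 of the 54 genes, or 87.0%. Among the 1867 other genes in the same range of irradiated unc-22(RNAi) means, replicate 2 was highest for 49.6%. The library with the highest level held a median of 53.5% of a gene's summed CPM in the group, against 37.6% for those other genes. In 31 of the 54 genes it held more than 50%.

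Member dd_Smed_v6_16959_0_1, the first in rank, had 0.781, 6.78, 4.24 and 0.618 CPM in irradiated atm(RNAi), against 2.43, 25.2, 5.15 and 4.11 CPM in irradiated unc-22(RNAi). Its unirradiated levels were 0, 0.485, 0.514 and 0.319 CPM in atm(RNAi), against 0.689, 0.494, 0 and 0.264 CPM in unc-22(RNAi). Replicate 2 carried most of its irradiated control mean, and all 8 irradiated libraries of this gene but irradiated atm(RNAi) replicate 4 lay above the highest unirradiated library. The second in rank, dd_Smed_v6_14502_0_1, had 0.597, 4.11, 4.94 and 0.903 CPM in irradiated atm(RNAi), against 1.43, 20.3, 2.71 and 9.34 CPM in irradiated unc-22(RNAi). In both irradiated groups the lowest library of this gene was replicate 1, and the groups overlapped.

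The genes at both ends of this unevenness were taken after the values were seen. For dd_Smed_v6_10616_0_1, irradiated unc-22(RNAi) replicate 2 held 85.6% of the summed CPM of its group. Its levels were 0.735, 2.09, 2.89 and 1.85 CPM in irradiated atm(RNAi), against 0, 25.4, 2.25 and 2.01 CPM in irradiated unc-22(RNAi). Without replicate 2 the irradiated control libraries of this gene lay within or below the range of the irradiated atm(RNAi) ones. The most even gene was dd_Smed_v6_12075_0_1, with 0.184, 3.10, 2.10 and 2.00 CPM in irradiated atm(RNAi), against 5.15, 5.94, 3.96 and 5.07 CPM in irradiated unc-22(RNAi). All 4 of its irradiated control libraries were above all 4 irradiated atm(RNAi) libraries.

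Summed over the 54 genes, the level was 15.2, 252, 216 and 65.5 CPM in irradiated atm(RNAi) and 107, 693, 213 and 329 CPM in irradiated unc-22(RNAi). The sums were 12.6, 17.4, 19.2 and 23.6 CPM in unirradiated atm(RNAi) and 21.2, 17.9, 17.1 and 13.5 CPM in unirradiated unc-22(RNAi). Irradiated atm(RNAi) replicate 1 thus lay within the range of the unirradiated libraries, and the other 7 irradiated libraries lay above it. The number of the 54 genes at 1 CPM or more was 1, 54, 43 and 29 in irradiated atm(RNAi) and 39, 54, 50 and 54 in irradiated unc-22(RNAi). It was 0 to 3 in the 8 unirradiated libraries. The unirradiated libraries were held low by the rule. The irradiated atm(RNAi) libraries were not.

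**Figure D2:**
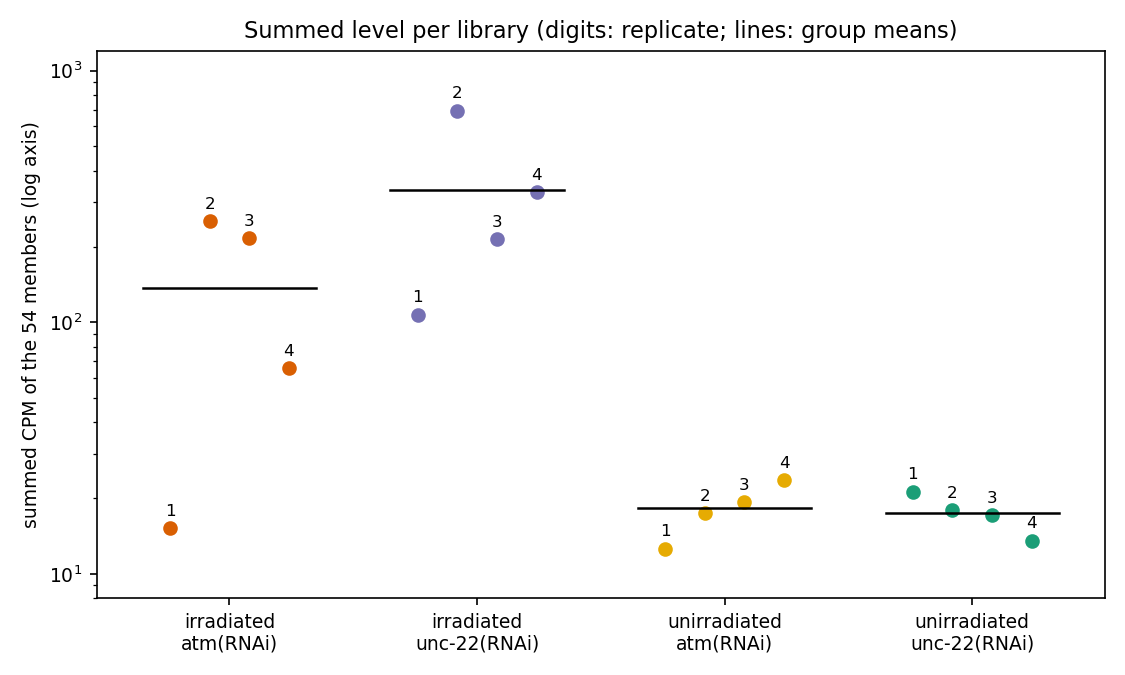
Summed CPM of the 54 genes in each library on a log axis, by group, with the replicate number above each point and the group mean as a line. Sums run from 15.2 to 252 CPM in irradiated atm(RNAi), from 107 to 693 CPM in irradiated unc-22(RNAi) and from 12.6 to 23.6 CPM in the unirradiated libraries.

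Library measures were set beside these sums. The library with the highest sum, irradiated unc-22(RNAi) replicate 2, also had the largest share of unmapped reads, 70.9%, and the most genes at 1 CPM or more, 15459. In its group the unmapped shares were 65.6%, 70.9%, 50.5% and 58.5%, with 14396, 15459, 14282 and 14798 genes at 1 CPM or more. Below replicate 2 the order of the sums in this group was not that of either measure, since replicate 1, with the lowest sum, had the second largest unmapped share. Irradiated atm(RNAi) had 36.9%, 43.7%, 38.7% and 39.6% unmapped, with 12537, 14985, 13964 and 13464 genes at 1 CPM or more. Irradiated atm(RNAi) replicate 1 was the lowest of its group in both measures and in the sum. Over all libraries of that group the order of the sums was that of the genes at 1 CPM or more, but not that of the unmapped shares. The unirradiated libraries had 24.8% to 46.4% unmapped and 12282 to 13087 genes at 1 CPM or more. The part of these measures in the levels of the 54 genes was not tested.

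Membership depended most on 1 library of the irradiated control group, replicate 2. With irradiated unc-22(RNAi) replicate 2 left out of its mean, 13 genes met the rule, all of them among the 54. With replicate 1 left out, 95 genes met it, 53 of them among the 54. Leaving out replicate 3 gave 73 genes, 52 of them among the 54, and leaving out replicate 4 gave 59, with 47 among the 54. Leaving out an unirradiated library gave 46 to 60 genes, with 42 to 52 of them among the 54. Irradiated control medians of 5 CPM or more were seen for 28 of the 54 genes, and 36 of them had at least 1 CPM in each irradiated control library.

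**Figure D3:**
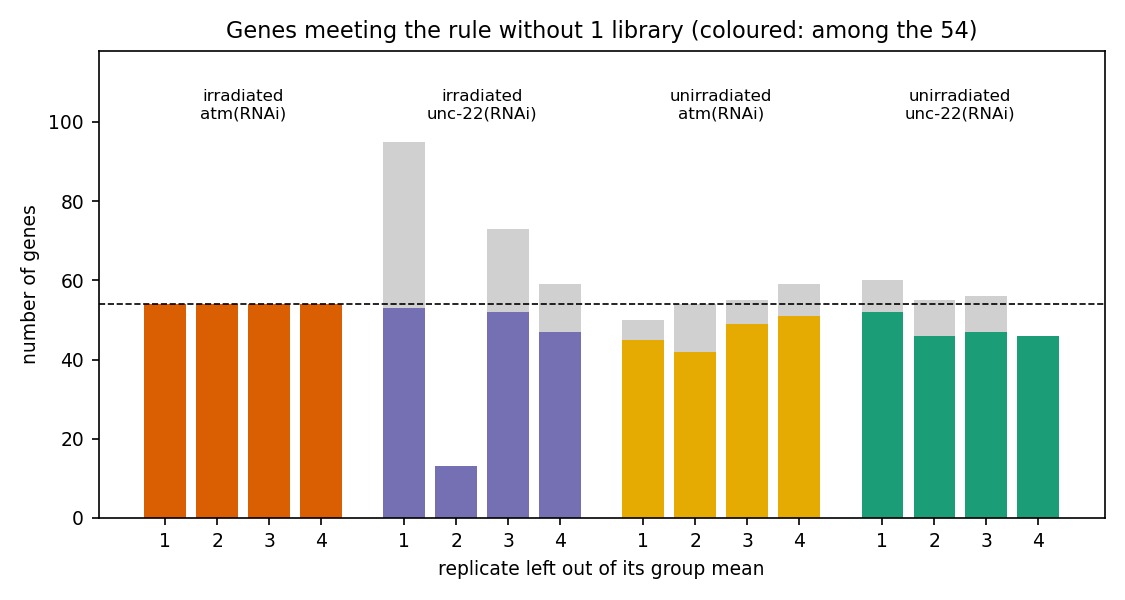
Number of genes that met the rule when 1 library was left out of its group mean (full bar), with those among the 54 in colour and the dashed line at 54. Leaving out irradiated unc-22(RNAi) replicate 2 left 13 genes and leaving out replicate 1 gave 95, while irradiated atm(RNAi) libraries do not enter the rule.

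The sequencing lanes, which the file names give, allowed the rule to be applied to one pair of libraries per group and read in the other. Libraries of replicates 3 and 4 were run in lane 7 and those of replicates 1 and 2 in lane 8. Lane 7 alone chose 43 genes, of which 15 were among the 54. In lane 8 the median of these 43 genes was 6.34 CPM in irradiated unc-22(RNAi), against 0.528 CPM in unirradiated unc-22(RNAi), and 43 of 43 were higher after irradiation. At 5 CPM or more in irradiated unc-22(RNAi) of lane 8 were 25 of them, or 58.1%. Lane 8 alone chose 94 genes, whose median in lane 7 was 3.58 CPM in irradiated unc-22(RNAi) against 0.348 CPM in unirradiated unc-22(RNAi). Of the 94, 93 were higher after irradiation in lane 7, and 22, or 23.4%, reached 5 CPM. The direction of the rise was thus seen in libraries that the choice had not used, while 5 genes met the whole rule in both lanes. The share of all genes that were higher in the other lane was not taken, so these counts have no background. Irradiated unc-22(RNAi) libraries held 14282 to 15459 genes at 1 CPM or more, against 12282 to 12791 in unirradiated unc-22(RNAi).

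Genes just outside the lines of the rule had values close to those just inside. The genes nearest to 5 CPM on the inside had irradiated control means of 5.01, 5.03 and 5.05 CPM, and the nearest outside had 4.93, 4.88 and 4.85 CPM. At the other line, the higher of the unirradiated means was 0.497, 0.497 and 0.496 CPM just inside and 0.501, 0.505 and 0.505 CPM just outside. Between 0.5 and 1 CPM in the higher unirradiated group lay 263 genes with 5 CPM or more in irradiated unc-22(RNAi). Irradiated unc-22(RNAi) replicate 2 was the highest of its group for 81.0% of these. A further set held 420 genes at 0.5 CPM or more without irradiation and 5 CPM or more in irradiated unc-22(RNAi). Their irradiated mean in unc-22(RNAi) was at least 10.6 times the unirradiated one, the smallest ratio among the 54. In that set replicate 2 was highest for 85.2%. Genes that met both definitions are in both sets, so the 263 and the 420 genes overlap.

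Irradiation under atm knockdown was then followed in the libraries that the rule left free. Irradiated atm(RNAi) means ran from 0.854 to 5.96 CPM. The mean was 5 CPM or more for 5 of the 54 genes, between 0.5 and 5 CPM for 49 and under 0.5 CPM for 0. All 54 means were higher than in unirradiated atm(RNAi), with ratios from 1.87 to 37.4 and a median of 6.96. This comparison and the one between the irradiated groups share the irradiated atm(RNAi) libraries, and each uses a group that the rule bounded. Since the rule bounded the unirradiated atm(RNAi) level from above, a ratio over 1 is favoured by the choice.

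Called higher in irradiated against unirradiated atm(RNAi) were 4 of the 54 genes, or 7.41%, against 2.42% of all tested genes (edgeR quasi-likelihood test, Benjamini-Hochberg adjusted p under 0.05). Called lower were 0 of the 54, against 1.15% of all tested genes. At an unadjusted p under 0.05 were 40 of the 54, against 20.8% of all tested genes. DESeq2 called 26, all higher, beside 13.1% of the genes it tested called in either direction. The median log2 fold change, with TMM-scaled libraries, was 2.66 over the 54 genes and 0.06 over all tested genes. The 54 genes all passed the low-count filter, which their irradiated control level could secure, so these counts lend no support of their own.

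The smallest p belonged to dd_Smed_v6_21541_0_1, with 0.919, 10.5, 11.8 and 0.618 CPM in irradiated atm(RNAi), against 0.154, 0.969, 0.475 and 0.266 CPM in unirradiated atm(RNAi). The log2 fold change amounted to 3.57 ± 0.86 (SE; edgeR adjusted p 0.0326). Replicates 2 and 3 were high and replicates 1 and 4 stayed in the range of the unirradiated libraries. For dd_Smed_v6_2361_0_1 the levels were 0.459, 2.53, 2.93 and 1.62 CPM in irradiated atm(RNAi), against 0, 0.0485, 0.237 and 0.160 CPM in unirradiated atm(RNAi). At a log2 fold change of 3.94 ± 1.00 (SE; edgeR adjusted p 0.0385), its groups did not overlap.

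The third called gene, dd_Smed_v6_17986_0_1, had 0.505, 5.34, 6.19 and 2.14 CPM in irradiated atm(RNAi), against 0.103, 0, 0.435 and 0.213 CPM in unirradiated atm(RNAi), and these did not overlap either. The log2 fold change here was 4.13 ± 1.09 (SE; edgeR adjusted p 0.0447). The fourth, dd_Smed_v6_16546_0_1, had 0, 6.64, 6.84 and 1.43 CPM in irradiated atm(RNAi), against 0, 0, 0.0791 and 0.319 CPM in unirradiated atm(RNAi). The fit gave it a log2 fold change of 5.12 ± 1.37 (SE; edgeR adjusted p 0.0464). Irradiated replicate 1 of this gene had no read, so its groups overlapped. The 4 adjusted p values lay close to the threshold. No member was called without irradiated atm(RNAi) replicate 2 or 3, or without unirradiated atm(RNAi) replicate 1 or 3, where 0.791% to 0.978% of all genes were called in either direction, against 3.58% with all libraries. There was 1 call without unirradiated atm(RNAi) replicate 2 or 4 or irradiated unc-22(RNAi) replicate 4, beside 0.906% to 2.66% of all genes. There were 2 without irradiated unc-22(RNAi) replicate 3 or unirradiated unc-22(RNAi) replicate 1 or 4, beside 2.29% to 2.93%. Without irradiated unc-22(RNAi) replicate 1 there were 10, beside 5.65% of all genes, and without its replicate 2 there were 9, beside 7.36%. In these fits the calls over all genes moved in the same direction as those of the 54. That did not hold without irradiated atm(RNAi) replicate 4, where 6 members were called, beside 2.97% of all genes. Without unirradiated unc-22(RNAi) replicate 3 the calls stayed at 4, beside 2.51%.

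**Figure D4:**
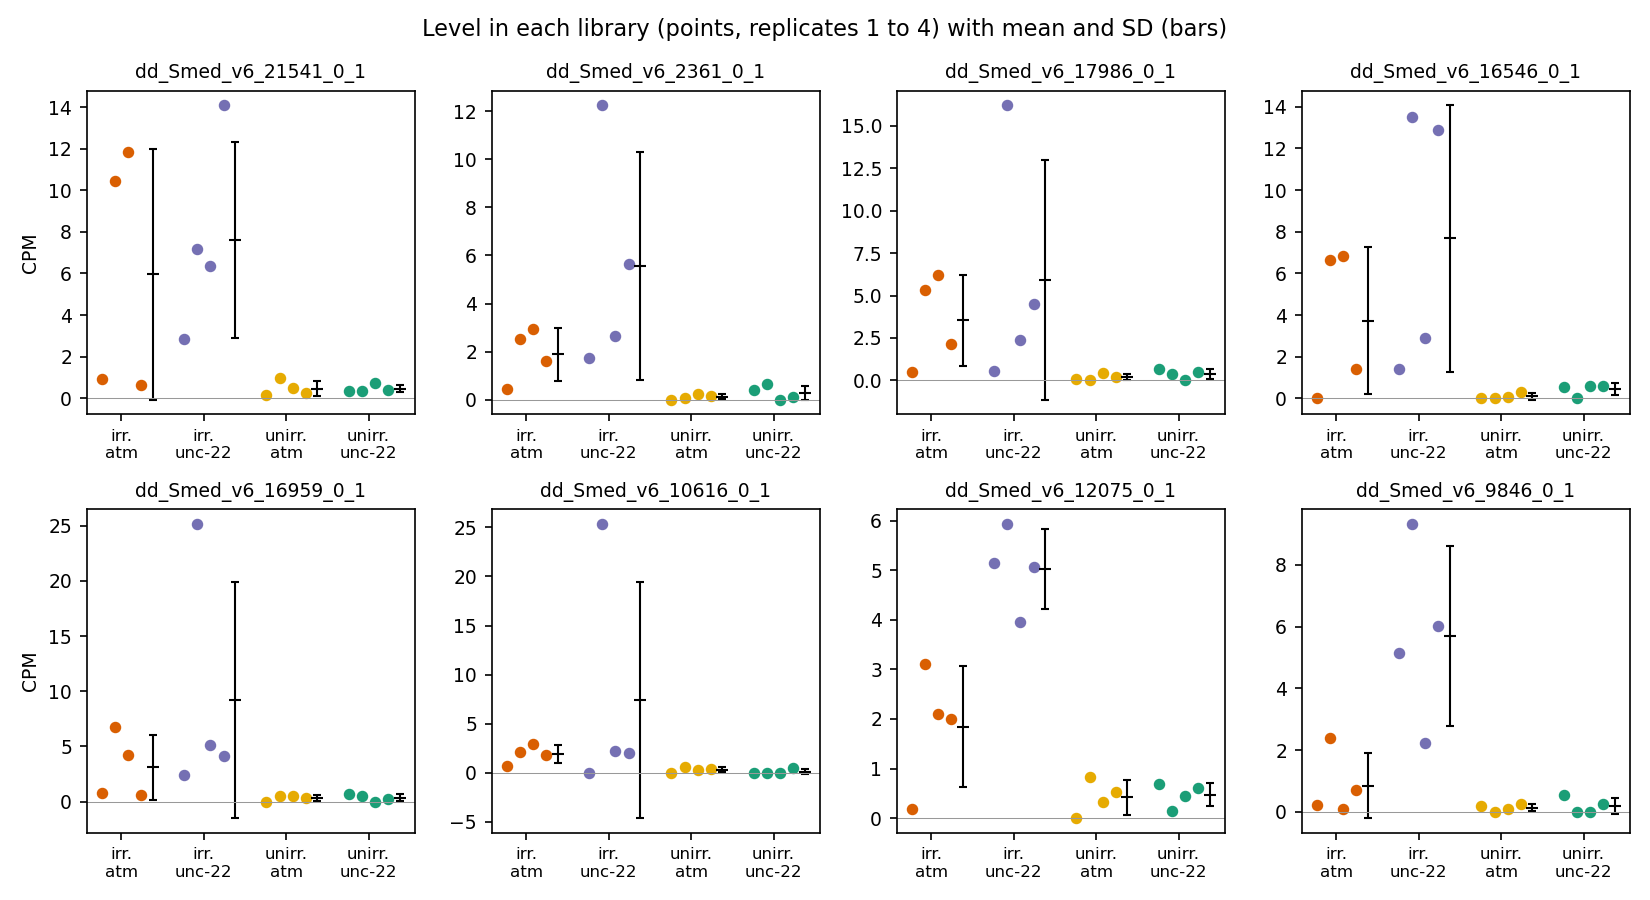
CPM in each library for 8 of the 54 genes, with points for replicates 1 to 4 from left to right in each group and bars for the mean and SD (n = 4). The upper row holds the 4 genes called in irradiated against unirradiated atm(RNAi); in the lower row are the first in rank, the most uneven, the most even and the gene with the lowest ratio of irradiated atm(RNAi) to irradiated unc-22(RNAi).

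In 6 of the 54 genes, or 11.1%, every irradiated atm(RNAi) library was above every unirradiated one, against 6.11% of all tested genes. The reverse was seen in 0 of the 54, against 9.55% of all tested genes. Besides dd_Smed_v6_2361_0_1 and dd_Smed_v6_17986_0_1 these were dd_Smed_v6_10616_0_1, dd_Smed_v6_11135_0_1 and both genes first in rank. Irradiated atm(RNAi) replicate 1 lay above all 4 unirradiated atm(RNAi) libraries for 8 of the 54 genes, replicate 2 for 54, replicate 3 for 47 and replicate 4 for 43. No share over all tested genes was taken for these 4 counts. The rule held the unirradiated atm(RNAi) level low, which favours such counts and every upward separation of the 54 genes given here. Irradiated replicate 1 was then left out of this separation, a choice made after its low values were seen. Of the 54 genes, 39, or 72.2%, were then separated, against 16.9% of all tested genes. Without this replicate the edgeR fit called 28 of the 54 genes, beside 10.7% of all genes tested in that fit called in either direction. Irradiated replicate 1 was lowest, or tied for lowest, of its group for 48 of the 54 genes, or 88.9%, against 42.0% of the 1867 other genes of the same irradiated control range. The share was 89.0% in the 263 genes just above 0.5 CPM and 93.6% in the 420 genes with as large a fold.

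The irradiated libraries of atm(RNAi) also differed in which of the 54 genes they held. Replicate 2 had 1.52 to 10.5 CPM of every one. Replicate 3 ran from 0 to 13.4 CPM, was the highest of the group for 20 genes and had under 1 CPM for 11. Its extremes were dd_Smed_v6_19866_0_1, with 0, 4.69, 13.4 and 2.19 CPM in irradiated atm(RNAi), and dd_Smed_v6_17222_0_1, with 0, 6.50, 0 and 0.523 CPM. In irradiated unc-22(RNAi) these genes had 2.72, 6.13, 6.87 and 6.52 CPM and 4.72, 12.3, 4.36 and 9.10 CPM, in that order. The levels of dd_Smed_v6_17222_0_1 in irradiated atm(RNAi) thus rest on replicate 2.

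Compared with irradiated unc-22(RNAi), the level under atm knockdown was lower in mean for all 54 genes. Irradiated atm(RNAi) reached 15.0% to 97.6% of the irradiated unc-22(RNAi) mean, with a median of 33.8%. The median log2 ratio, with 0.1 CPM added to both means, was -1.52, and it was -0.74 without irradiated unc-22(RNAi) replicate 2. It was -0.38 without that library and irradiated atm(RNAi) replicate 1, a pair chosen after seeing the data. The choice of genes for a high irradiated unc-22(RNAi) mean favours this direction. Within lane 7 the median of the 54 genes was 2.15 CPM in irradiated atm(RNAi) and 4.78 CPM in irradiated unc-22(RNAi), and 46 genes were lower in irradiated atm(RNAi). Within lane 8 it was 2.37 CPM in irradiated atm(RNAi) and 7.35 CPM in irradiated unc-22(RNAi), and 53 genes were lower. Both lanes hold libraries that chose the genes, and no share over all tested genes was taken for these counts. In lane 7 the summed levels were 216 and 65.5 CPM in irradiated atm(RNAi) and 213 and 329 CPM in irradiated unc-22(RNAi). In lane 8 they were 15.2 and 252 CPM, against 107 and 693 CPM. The sums of the groups thus overlapped in both lanes. The median ratio was 80.9% over the 1867 other genes of the same irradiated control range, and 92.9% over 17734 of the tested genes with a read in irradiated unc-22(RNAi). In the 263 genes just above 0.5 CPM the median was 37.6%, and in the 420 genes with as large a fold it was 34.2%. The 54 genes thus stood near other strongly rising genes in this ratio. Those sets were also chosen by a high irradiated unc-22(RNAi) mean, which favours a low ratio in them too. They are therefore no independent reference, and no test was made between the sets.

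No gene of the 54 was called between irradiated atm(RNAi) and irradiated unc-22(RNAi) (edgeR, adjusted p under 0.05), beside 3.36% of all tested genes called lower and 11.5% called higher. At an unadjusted p under 0.05 were 4 of the 54, against 31.1% of all tested genes. DESeq2 called 3, all lower in irradiated atm(RNAi), beside 22.2% of the genes it tested called in either direction. The shares over all genes depend on which libraries were fitted: edgeR called 14.8% in either direction with all 16 libraries, 0 of 15486 genes with the irradiated groups alone, 5.15% in lane 7 alone and 0 of 18630 genes in lane 8 alone. The median log2 fold change was -1.44 over the 54 genes, with a range of -2.71 to 0.06, and 0.001 over all tested genes. Standard errors computed back from the test were 0.72 to 1.35 on the log2 scale. At this spread a difference of the size of the median was not called, so the lack of calls does not show equal levels. Of the 263 genes just above 0.5 CPM, 11, or 4.18%, were called lower and 0 higher. Of the 420 genes with as large a fold, 69, or 16.4%, were called lower and 0 higher. The choice of these sets by a high irradiated unc-22(RNAi) mean favours lower calls.

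The lowest ratio was that of dd_Smed_v6_9846_0_1, with 0.230, 2.38, 0.0931 and 0.713 CPM in irradiated atm(RNAi), against 5.15, 9.34, 2.25 and 6.04 CPM in irradiated unc-22(RNAi). This was a log2 fold change of -2.71 ± 1.04 (SE; edgeR adjusted p 0.0848). The groups overlapped through irradiated atm(RNAi) replicate 2. Next came dd_Smed_v6_1621_0_1, with 0.0459, 1.52, 1.40 and 0.665 CPM in irradiated atm(RNAi), against 4.58, 11.0, 4.56 and 3.38 CPM in irradiated unc-22(RNAi). The log2 fold change of -2.59 ± 1.10 (SE) had an edgeR adjusted p of 0.117, although no library of one group reached into the other.

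The libraries of both irradiated groups were fully separated, with atm(RNAi) lower, for 3 of the 54 genes, or 5.56%, against 4.06% of all tested genes. With atm(RNAi) higher it was 0 of the 54, against 10.4%. The 3 genes were dd_Smed_v6_1621_0_1, dd_Smed_v6_12075_0_1 and dd_Smed_v6_3208_0_1. The last had 0.459, 3.32, 0.792 and 0.333 CPM in irradiated atm(RNAi), against 3.43, 5.19, 8.65 and 10.1 CPM in irradiated unc-22(RNAi). In irradiated atm(RNAi) its replicates 1, 3 and 4 were within the unirradiated range, where the highest library had 1.18 CPM. Its irradiated atm(RNAi) mean was 17.9% of the irradiated unc-22(RNAi) mean (edgeR adjusted p 0.099). DESeq2 called this gene, dd_Smed_v6_9846_0_1 and dd_Smed_v6_1621_0_1. Without irradiated atm(RNAi) replicate 2, edgeR called 4 members, or 7.41%, beside 19.6% of all genes tested in that fit.

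At the other end, dd_Smed_v6_10596_0_1 had 0.827, 9.89, 9.27 and 1.19 CPM in irradiated atm(RNAi), against 0.429, 11.4, 5.02 and 4.83 CPM in irradiated unc-22(RNAi). The mean was 5.29 ± 4.96 CPM in irradiated atm(RNAi) and 5.42 ± 4.52 CPM in irradiated unc-22(RNAi) (SD, n = 4 each), a difference far within the spread. For dd_Smed_v6_6493_0_1 the levels were 0.0919, 6.35, 11.7 and 0.998 CPM in irradiated atm(RNAi), against 0.429, 11.2, 2.58 and 6.44 CPM in irradiated unc-22(RNAi). These genes had the highest ratios of the 54, and in both the groups overlapped.

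The 5 genes that kept 5 CPM or more under atm knockdown were dd_Smed_v6_21541_0_1, dd_Smed_v6_2602_0_1, dd_Smed_v6_10596_0_1, dd_Smed_v6_29343_0_1 and dd_Smed_v6_19866_0_1. Their irradiated atm(RNAi) means were 5.96 ± 6.02, 5.40 ± 5.73, 5.29 ± 4.96, 5.11 ± 5.82 and 5.06 ± 5.86 CPM (SD, n = 4), in that order. Each SD was close to its mean, because replicates 2 and 3 were high and replicates 1 and 4 low. The number at 5 CPM or more was 8 without replicate 1, 1 without replicate 2 and 0 without replicate 3. In dd_Smed_v6_2602_0_1 the 4 libraries had 0.0919, 7.14, 12.7 and 1.66 CPM, and in dd_Smed_v6_29343_0_1 they had 0.230, 6.50, 12.8 and 0.950 CPM. Of all genes under 0.5 CPM in both unirradiated groups, 1 more, dd_Smed_v6_9341_0_1, reached 5 CPM in irradiated atm(RNAi). Its mean was 6.43 CPM there, against 3.75 CPM in irradiated unc-22(RNAi), which left it outside the rule.

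**Figure D5:**
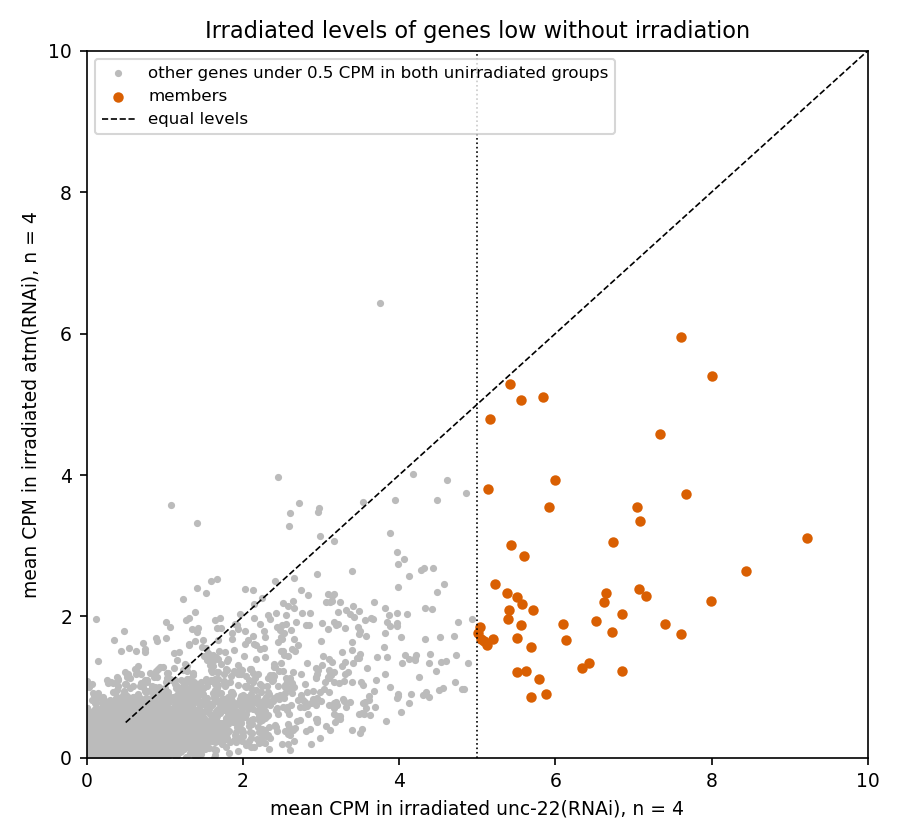
Mean CPM (n = 4) in irradiated atm(RNAi) against mean CPM in irradiated unc-22(RNAi) for genes under 0.5 CPM in both unirradiated groups, with the 54 genes in orange, the line of equal levels dashed and the 5 CPM line dotted. All 54 points lie below the line of equal levels, from 15.0% to 97.6% of the irradiated unc-22(RNAi) mean, and the cloud runs on below 5 CPM without a gap.

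The gene models and strands of the 54 genes were read as well, since the rule did not use them. A single transcript model made up 45 of the 54 genes, or 83.3%, against 80.5% of all tested genes. The median share of reads on the opposite strand was 1.25% over the 54 genes and 1.06% over all tested genes. Pooled over the libraries, the share was 6.56% for the 54 genes, of which 2 genes, named after their values were seen, made up most. Without them it was 1.70%. The pooled share was 1.64% over all tested genes and 4.06% over the 1867 other genes of the same irradiated control range, with no gene left out of either set.

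For dd_Smed_v6_16601_0_1, 71.8% of reads lay on the opposite strand. Opposite-strand reads, in CPM of the same totals, were 3.72, 6.78, 3.17 and 2.71 in irradiated atm(RNAi), 3.43, 16.6, 4.10 and 5.80 in irradiated unc-22(RNAi), and 1.44 to 5.04 in the unirradiated libraries. Its counted strand had 0.965, 5.77, 0.186 and 0.190 CPM in irradiated atm(RNAi), against 6.86, 15.5, 1.92 and 2.66 CPM in irradiated unc-22(RNAi). This gene was near 0.5 CPM without irradiation on the counted strand alone; its opposite strand was read in all 16 libraries. In dd_Smed_v6_11411_0_1 the share was 44.4%. Whether these reads come from overlapping transcripts was not tested.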

How the data were processed

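Reads of 16 poly(A) libraries, made with a directional kit per the labels' protocols, were trimmed with Trim Galore 0.6.5 and aligned with STAR 2.7.9, per the submitters' processing notes; settings are not given in the sources used here. The deposited values are raw read counts, in a matrix of genes and in a file per library. Of 429328 matrix cells, 0 differed from the per-library reverse-strand counts summed over the transcripts of a gene. Lines that name no gene were left out: per the file headers they hold 24.8% to 70.9% unmapped and 4.37% to 11.5% multimapped reads, so near-identical genes are uncertain.

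CPM used column sums, as the rule does. Tests used edgeR 4.0.16 (R 4.3.3): filterByExpr kept 17843 genes and removed 8990, followed by TMM factors and 1 quasi-likelihood fit of 16 libraries with a coefficient per group, with Benjamini-Hochberg adjustment over all tested genes. This test reports no SE. The SE printed here is the absolute log2 fold change divided by the square root of the F statistic, so it restates the test. All 24 pairs of libraries within groups differed by more than sampling noise (chi-square per degree of freedom at least 9.18). The fits were tested on simulated data.

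The rule for named genes took the 10 highest irradiated unc-22(RNAi) means, the 5 highest and 5 lowest ratios of the irradiated groups, the 3 genes on either side of each threshold and up to 5 called genes per comparison with the smallest p. Since the files give no names, the first genes of each list are printed, beside those chosen after their values were seen or forming a count of 6 or fewer. The members, lists and rules were chosen with earlier results of these data known. A list of neoblast, tissue and DNA damage genes could not be matched to identifiers and is not analysed here. Alternatives were other scalings, filters, thresholds, strands and tools, single lanes, a replicate block, DESeq2 1.42.0 and leaving out each library.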

Additional observations from a re-analysis of the deposited data

Results flagged for a closer look

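Among the named genes, 13 sets of 4 libraries held a library far from the other 3, with a gap to the nearest library, as a share of the range of the set, past Dixon's 95% critical value. In all, 84 such sets were looked at. Some of the genes were chosen after their values were seen, and many values lay near 0 CPM. The rate that this critical value implies therefore does not hold here, and the count of 13 is a description. In irradiated atm(RNAi), replicate 2 stood above the rest in dd_Smed_v6_17222_0_1 (gap 0.92 of the range), dd_Smed_v6_16601_0_1 (0.861) and dd_Smed_v6_3208_0_1 (0.846). In irradiated unc-22(RNAi), replicate 2 stood above the rest in dd_Smed_v6_10616_0_1 (0.911), dd_Smed_v6_16959_0_1 (0.88) and dd_Smed_v6_1621_0_1 (0.844). All 6 such values in irradiated groups were thus high values of a replicate 2. In unirradiated atm(RNAi) a single library was high in dd_Smed_v6_10596_0_1 (0.881, at 1.33 CPM), dd_Smed_v6_17222_0_1 (0.848, at 1.13 CPM) and dd_Smed_v6_11135_0_1 (0.94, at 0.630 CPM). In unirradiated unc-22(RNAi) a single library was high in dd_Smed_v6_10616_0_1 and dd_Smed_v6_11135_0_1 (1 in each, with 0 reads in the other 3 libraries) and in dd_Smed_v6_29343_0_1 (0.874), and low in dd_Smed_v6_16546_0_1 (0.893). All unirradiated values concerned were 1.33 CPM or less.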

How the results depend on the processing

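The number of genes meeting the rule, 54, became 34 with TMM-scaled totals, 3 under 0.25 CPM without irradiation, 0 at 10 CPM or more, and 94 in lane 8 alone. With group medians the number was 37, and only 21 of these genes were among the 54. It reached the limit of 200 under 1 CPM and at 2.5 CPM or more, where 317 and 315 genes met the rule before the limit. Leaving out 1 library gave 13 to 95 genes. The 4 members called in irradiated against unirradiated atm(RNAi) (3.58% of all genes called in either direction) became 2 with library totals only (3.31%) or lane as a covariate (2.78%), 7 without a filter (2.75%) and 26 with DESeq2 (13.1%). They became 0 in lane 7 alone (0.365%) and in lane 8 alone, where 0 of 18630 genes were called, so these zeros say nothing of the members. Leaving out 1 library gave 0 to 28, beside 0.791% to 10.7% of all genes. The 0 calls between the irradiated groups (14.8% of all genes) became 3 with DESeq2 (22.2%) and 1 in lane 7 alone (5.15%), and 0 to 4 without 1 library (6.21% to 23.5%). The number of members at 5 CPM or more in irradiated atm(RNAi), 5, was 2 with medians, 3 among members at 1 CPM or more in each irradiated unc-22(RNAi) library, 8 without irradiated atm(RNAi) replicate 1 and irradiated unc-22(RNAi) replicate 2 (chosen after seeing the data), and 0 to 8 without 1 library. The share of genes chosen in one lane that reached 5 CPM in the other, 58.1% with lane 7 choosing, was 23.4% with lane 8 choosing. The causes were not tested.

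The median log2 ratio of irradiated atm(RNAi) to irradiated unc-22(RNAi), -1.52, stayed negative in every alternative run. It ran from -1.98 to -0.74 without 1 library, and was -0.38 without the pair of libraries just named, while its SD over the 4 irradiated atm(RNAi) libraries was 1.68. No named gene changed the direction of a called difference.

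Whether replicate numbers pair the libraries is not stated in the labels and was not settled. For irradiated against unirradiated atm(RNAi), correlations of deviations ran from 0.07 to 0.12 between libraries of equal number. Between libraries of unequal number they ran from -0.11 to 0.08. Between the irradiated groups they ran from -0.07 to 0.43 at equal number and from -0.36 to 0.23 at unequal number. With a replicate block, 6 members were called in the first comparison, 3 of them among the 4, beside 4.85% of all genes, and 1, lower in irradiated atm(RNAi), in the second, beside 20.7%.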
